A study of Homo sapiens with 6 samples.

Results

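The resistant cultures of the follicular lymphoma line DOHH2 were compared with those of the Burkitt lymphoma line DAUDI. The groups were chosen by title: DOHH2 cells resistant to idelalisib and DOHH2 cells resistant to ibrutinib against the 2 matching DAUDI cultures, 4 of the 6 polyA RNA libraries of the series. Each culture gave 1 library, so each line is represented by 2 libraries that differ in the drug to which the cells were made resistant. The libraries labelled as parental cells were not used here. All 4 cultures share drug resistance, so nothing below describes how resistance arose. Both lines came from ATCC, per the labels. The labels give neither drug dose, duration, nor whether a culture is a clone or a pool, and do not say that the cultures of a line were selected independently. The p-values therefore measure only the spread between the 2 differently selected cultures of each line. The question was which genes set the follicular line apart from the Burkitt line whichever drug the cells resisted.

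DOHH2 and Daudi cells are mature B cell lymphoma lines. Follicular lymphoma and Burkitt lymphoma both resemble B cells of the germinal centre, the structure in which B cells mutate their antibody genes and are selected for binding. Follicular lymphoma typically carries a translocation that drives the anti-apoptotic gene BCL2, and Burkitt lymphoma one that drives the transcription factor gene MYC. Daudi cells carry Epstein-Barr virus and are known for a mutation of B2M, the light chain of MHC class I, which leaves their surface without class I. Idelalisib inhibits the delta isoform of phosphoinositide 3-kinase, encoded by PIK3CD, and ibrutinib inhibits Bruton's tyrosine kinase, encoded by BTK. Both enzymes act below the B cell receptor.

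Expression was taken as FPKM, fragments scaled to transcript length and library size, summed over the isoforms of a gene. Throughout, 2 values for a line are those of its idelalisib-resistant and its ibrutinib-resistant library, in that order. Between 10280 and 10316 genes stood at 1 FPKM or more in the DOHH2 libraries and between 10440 and 10648 in the DAUDI libraries. Depth relative to the idelalisib-resistant DAUDI library, read from coverage per FPKM, was 0.940 and 0.902 in DOHH2, against 1 and 1.37 in DAUDI. Absolute depth is unknown. Differences are DOHH2 minus DAUDI of log2(FPKM + 1), so the ratio of a gene with low FPKM comes out too small. A gene is called where limma gave a Benjamini-Hochberg adjusted p under 0.05 over 11399 genes.

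The labels were checked against markers. All 7 B cell markers, among them MS4A1, CD79A, CD79B, CD22, PAX5 and BLNK, stood at 1 FPKM or more in all 4 libraries, with summed levels of 1076 and 979 FPKM in DOHH2 and 1424 and 1619 FPKM in DAUDI. Of 7 germinal centre markers, 7 and 7 reached 1 FPKM in DOHH2, against 6 and 7 in DAUDI. The 12 T and NK cell markers summed to 1.495 and 3.18 FPKM in DOHH2 and to 2.84 and 4.08 FPKM in DAUDI, and CD3D, CD8A, CD8B and GNLY were listed at 0 in all 4 libraries. The 10 myeloid markers summed to 29.3 and 26.2 FPKM in DOHH2 and 26.1 and 28.0 FPKM in DAUDI, but through different genes. CD33 stood at 29.1 and 26.2 FPKM in DOHH2, against 2.29 and 10.6 FPKM in DAUDI. The lysozyme gene LYZ stood at 0.111 and 0.0459 FPKM in DOHH2, against 15.003 and 13.0 FPKM in DAUDI, while MPO and S100A8 were listed at 0 in all 4. The 10 stromal and epithelial markers summed to 3.18 and 7.34 FPKM in DOHH2 and 0.144 and 0.335 FPKM in DAUDI, nearly all of it DCN at 3.18 and 7.31 FPKM in DOHH2, against 0.0558 and 0 FPKM in DAUDI, with COL3A1, KRT8 and KRT18 at 0. The 5 erythroid markers summed to 0 and 0 FPKM in DOHH2 and 0.145 and 0.0559 FPKM in DAUDI.

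The lines differed widely and in much the same way in both drug states. Of the genes tested, 4144 were called (36.4%), 1925 higher (16.9%) and 2219 lower (19.5%) in DOHH2, and 5402 had an unadjusted p under 0.05. In DOHH2 against DAUDI, 1735 genes (15.2%) were at least 1 apart on the log2 scale in the same direction in the idelalisib-resistant and in the ibrutinib-resistant pair, 755 higher (6.62%) and 980 lower (8.6%). Of these, 1730 were also called. In contrast, 8255 genes lay within 1 in both pairs. The median over all genes was -0.06, with 0.03 in the idelalisib-resistant pair and -0.15 in the ibrutinib-resistant pair. Across genes, which are not independent replicates, the differences of the pairs had a Pearson r of 0.908. Within a line 77 genes were at least 1 apart between the DOHH2 libraries and 342 between the DAUDI libraries.

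The number of calls depended on which libraries entered. With the idelalisib-resistant or the ibrutinib-resistant DOHH2 library left out, 1262 and 1244 genes were called, 1237 and 1231 of them among the 4144. The spread is then estimated from the DAUDI pair alone. Without the idelalisib-resistant or the ibrutinib-resistant DAUDI library 3521 and 2851 genes were called, 2888 and 2557 of them among the 4144, with 2170 and 1393 called lower. With a pseudocount of 5 in place of 1, 727 genes were 1 apart in both states. The 30 genes with the largest differences, given next, were called in every setting tried. They were chosen among called genes for their large differences, which makes this likely.

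**Figure D1:**
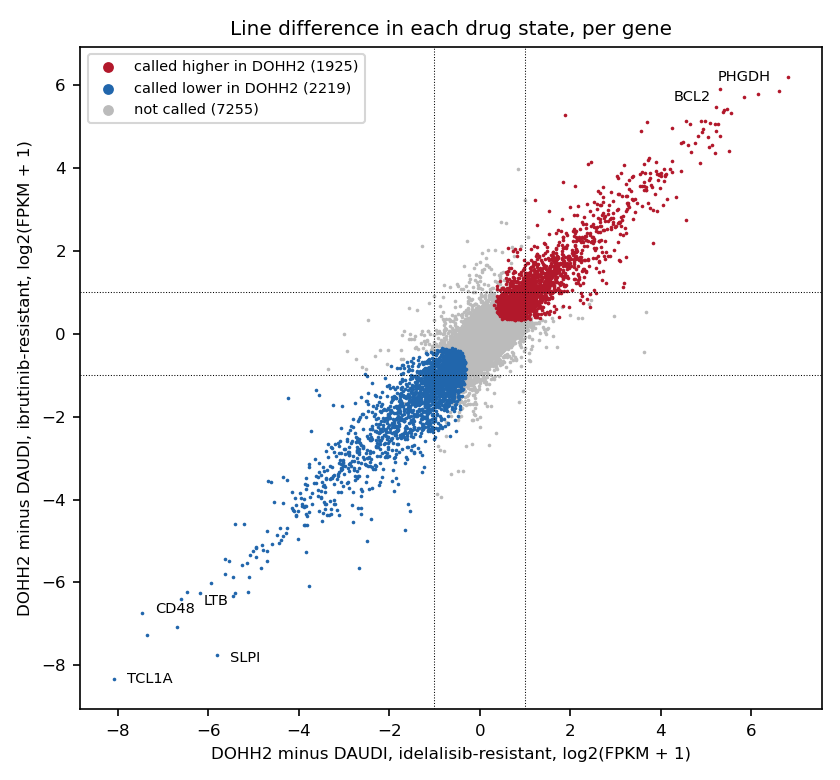
Difference between the lines per gene, as DOHH2 minus DAUDI on the log2(FPKM + 1) scale, in the idelalisib-resistant pair (x axis) and the ibrutinib-resistant pair (y axis); each point is 1 of 11399 genes, red where called higher in DOHH2, blue where called lower, grey where not called, and dotted lines mark 1 and -1. The called genes run along the diagonal.

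The 15 genes furthest above DAUDI in both drug states have varied roles. PHGDH, the first enzyme of serine synthesis (chr1:120254419-120286849, hg19), stood at 115 and 74.9 FPKM in DOHH2, against 0.0298 and 0.0435 FPKM in DAUDI. The libraries of the lines lay far apart for PHGDH, and the difference was 6.50, SE 0.23, adjusted p = 9.14e-05. SLC38A2, an amino acid transporter, stood at 37.5 and 30.6 FPKM in DOHH2, against 0.0284 and 0.0623 FPKM in DAUDI, a difference of 5.06, SE 0.16, adjusted p = 6.63e-05. GSTP1, a glutathione transferase, was expressed in both lines but at very different levels, with 242 and 325 FPKM in DOHH2, against 6.67 and 8.40 FPKM in DAUDI (5.05, SE 0.20, adjusted p = 0.0001). AKR1B1, aldose reductase, had 55.9 and 52.0 FPKM in DOHH2, against 0 and 0.0167 FPKM in DAUDI. CTPS2, a CTP synthase, had 36.4 and 32.3 FPKM in DOHH2, against 0.0218 and 0 FPKM in DAUDI. In each of these genes both DOHH2 libraries stood above both DAUDI libraries, which the choice by large differences makes near certain.

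Several of the others have roles outside B cells. MYBPC2, a myosin-binding protein of fast skeletal muscle, stood at 125 and 118 FPKM in DOHH2, against 0.275 and 1.06 FPKM in DAUDI. SRL encodes sarcalumenin of the muscle sarcoplasmic reticulum and had 30.2 and 30.1 FPKM in DOHH2, against 0.0199 and 0.0194 FPKM in DAUDI. For both genes the lines lay far apart, and the DAUDI libraries differed from each other more for MYBPC2 than for SRL. UCHL1, a ubiquitin hydrolase abundant in neurons, was measured at 69.7 and 55.9 FPKM in DOHH2, against 0 and 0.0439 FPKM in DAUDI (5.96, SE 0.16, adjusted p = 6.23e-05). The butyrophilin-like gene BTNL9 was at 41.4 and 40.9 FPKM in DOHH2, against 0 and 0 FPKM in DAUDI, so it was listed at 0 in both DAUDI libraries and no ratio can be given. HMGN3, which binds nucleosomes, had 40.7 and 40.5 FPKM in DOHH2, against 0 and 0.0304 FPKM in DAUDI. S100A10, the partner of annexin A2, had 38.9 and 60.2 FPKM in DOHH2, against 0 and 0.0238 FPKM in DAUDI. Both were listed at 0 in the idelalisib-resistant DAUDI library. SDCBP, which encodes the adaptor syntenin, had 47.4 and 43.1 FPKM in DOHH2, against 0.0277 and 0.111 FPKM in DAUDI. ABI2, which regulates actin, had 33.3 and 32.8 FPKM in DOHH2, against 0.0168 and 0.00656 FPKM in DAUDI. CMTM3, a chemokine-like factor gene, had 38.7 and 33.2 FPKM in DOHH2, against 0.0310 and 0.0227 FPKM in DAUDI. In these genes, too, the libraries of the lines did not overlap, which again follows from how they were chosen. BCL2 (chr18:60790579-60986613, hg19) stood at 53.5 and 58.2 FPKM in DOHH2, against 0.228 and 0.395 FPKM in DAUDI, a difference of 5.44, SE 0.15, adjusted p = 6.23e-05.

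The 15 genes furthest below DAUDI in both drug states follow. TCL1A, a coactivator of the kinase AKT (chr14:96176304-96180533, hg19), stood at 0.0494 and 0 FPKM in DOHH2, against 282 and 319.9 FPKM in DAUDI, the widest gap of all (-8.20, SE 0.14, adjusted p = 6.23e-05). CD48, an adhesion receptor of leukocytes, had 0 and 0.497 FPKM in DOHH2, against 175 and 159 FPKM in DAUDI (-7.10, SE 0.22, adjusted p = 6.63e-05). The lymphotoxin gene LTB had 0.982 and 1.12 FPKM in DOHH2, against 173 and 158 FPKM in DAUDI (-6.34, SE 0.14, adjusted p = 6.23e-05). IL2RG, the receptor chain shared by several interleukins, had 0.242 and 0.317 FPKM in DOHH2, against 74.6 and 84.6 FPKM in DAUDI (-5.98, SE 0.15, adjusted p = 6.23e-05). The LIM domain gene CRIP1 stood at 0 and 0.124 FPKM in DOHH2, against 163 and 172 FPKM in DAUDI. Each of these stood near or below 1 FPKM in both DOHH2 libraries and was abundant in both DAUDI libraries.

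ISG15, a ubiquitin-like modifier induced by interferon, and UBE2L6, the enzyme that conjugates it, were both among the lowest 15. ISG15 stood at 1.45 and 1.31 FPKM in DOHH2, against 106 and 185 FPKM in DAUDI (-5.89, SE 0.27, adjusted p = 0.000133), and UBE2L6 at 0 and 0.0574 FPKM in DOHH2, against 102 and 141 FPKM in DAUDI (-6.88, SE 0.19, adjusted p = 6.23e-05). PSMB9, a subunit of the immunoproteasome, had 0.675 and 1.49 FPKM in DOHH2, against 81.6 and 106 FPKM in DAUDI. APOBEC3C, a cytidine deaminase, had 0.0330 and 0.0844 FPKM in DOHH2, against 50.2 and 58.8 FPKM in DAUDI. MT2A, a metallothionein, had 0 and 0.326 FPKM in DOHH2, against 41.4 and 100.3 FPKM in DAUDI. Each of these was scarce in DOHH2 and abundant in both DAUDI libraries. The germline gene TEX19 stood at 0.150 and 0.138 FPKM in DOHH2, against 111 and 95.0 FPKM in DAUDI, and GTSF1, a gene of the piRNA pathway, at 0 and 0 FPKM in DOHH2, against 42.5 and 57.6 FPKM in DAUDI. SLPI, a protease inhibitor, was listed at 0 in both DOHH2 libraries and stood at 54.6 and 216 FPKM in DAUDI, where the ibrutinib-resistant library was the higher. YBX3, a cold shock protein, was listed at 0 in both DOHH2 libraries and at 45.2 and 43.7 FPKM in DAUDI. The pseudogene transcript ANKRD36BP2, the remaining one, had 0.0111 and 0 FPKM in DOHH2, against 72.0 and 75.7 FPKM in DAUDI.

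**Figure D2:**
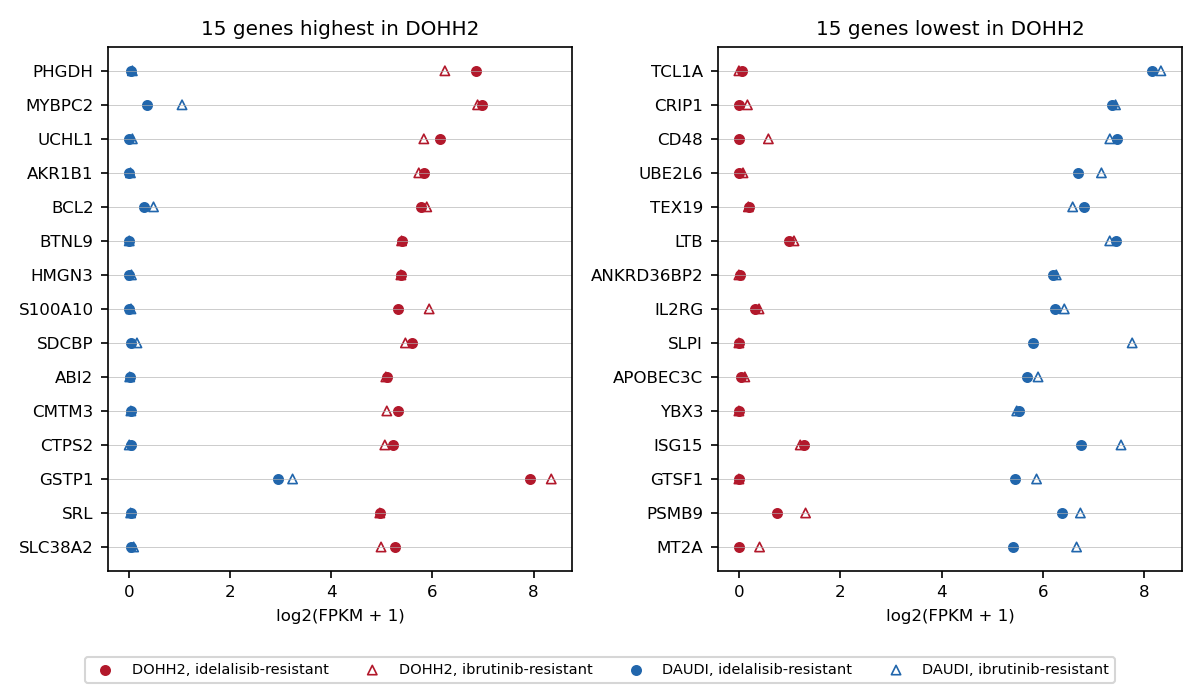
Levels of the 15 genes highest and the 15 lowest in DOHH2 by the smaller of the 2 drug-matched differences, as log2(FPKM + 1) per library; circles are idelalisib-resistant and triangles ibrutinib-resistant libraries, red DOHH2 and blue DAUDI. Red and blue symbols do not overlap for any of the 30 genes, which their choice by large differences makes near certain. Most stand near 0 in 1 of the lines.

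Some genes were on in 1 line and off in the other. Counting both libraries of a line at 10 FPKM or more and both of the other under 0.1 FPKM, 41 genes (0.36% of those tested) were on in DOHH2 and off in DAUDI, and 52 (0.456%) were off in DOHH2 and on in DAUDI. The 93 genes were all called, which the gap set by this rule makes near certain, so the calls add no support. With off drawn at 0.5 FPKM the count was 141, and with on drawn at 5 FPKM it was 200. Genes of metabolism, DNA repair, the cell cycle and the cell surface were among those off in DOHH2. MGMT, the enzyme that removes alkyl groups from guanine, was listed at 0 in both DOHH2 libraries, against 16.2 and 18.3 FPKM in DAUDI. CDKN2A, a cell cycle inhibitor, was likewise at 0, against 14.2 and 16.8 FPKM in DAUDI. GLUL, glutamine synthetase, was also at 0, against 15.1 and 18.5 FPKM in DAUDI. ADA, adenosine deaminase, was near 0, with 0.0440 and 0.0227 FPKM in DOHH2, against 10.9 and 14.7 FPKM in DAUDI. LY9, a lymphocyte receptor of the same family as CD48, was at 0 in both DOHH2 libraries, against 13.8 and 17.2 FPKM in DAUDI. FADS1, CTNNA1 and GYPC were among those on in DOHH2. FADS1, a fatty acid desaturase, stood at 27.8 and 26.7 FPKM in DOHH2, against 0.0189 and 0.0231 FPKM in DAUDI. CTNNA1, alpha-catenin, stood at 21.9 and 23.9 FPKM in DOHH2, against 0.0225 and 0.0164 FPKM in DAUDI. GYPC, a glycophorin, stood at 22.7 and 35.9 FPKM in DOHH2, against 0 and 0.0611 FPKM in DAUDI. MGMT, GLUL, ADA, LY9, FADS1, CTNNA1 and GYPC were picked out with their values in view. GOLGA8A and GOLGA8B, also on in DOHH2, are near-identical copies, and their split is uncertain. An FPKM of 0 from the isoform tool does not show that a gene is silent.

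Gene lists by function are given next, as the members called and their median difference to be read beside all genes tested, of which 36.4% were called and whose median was -0.058. The lists were drawn up with earlier results of these data known, so a list's direction is no independent evidence. Members named beyond the 4 of a list with the largest difference were picked with their values known. In bulk RNA, fewer cells expressing a gene and less RNA per cell cannot be told apart. Each list's counts are also given with 1 library left out, in the order idelalisib-resistant DOHH2, ibrutinib-resistant DOHH2, idelalisib-resistant DAUDI, ibrutinib-resistant DAUDI.

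**Figure D3:**
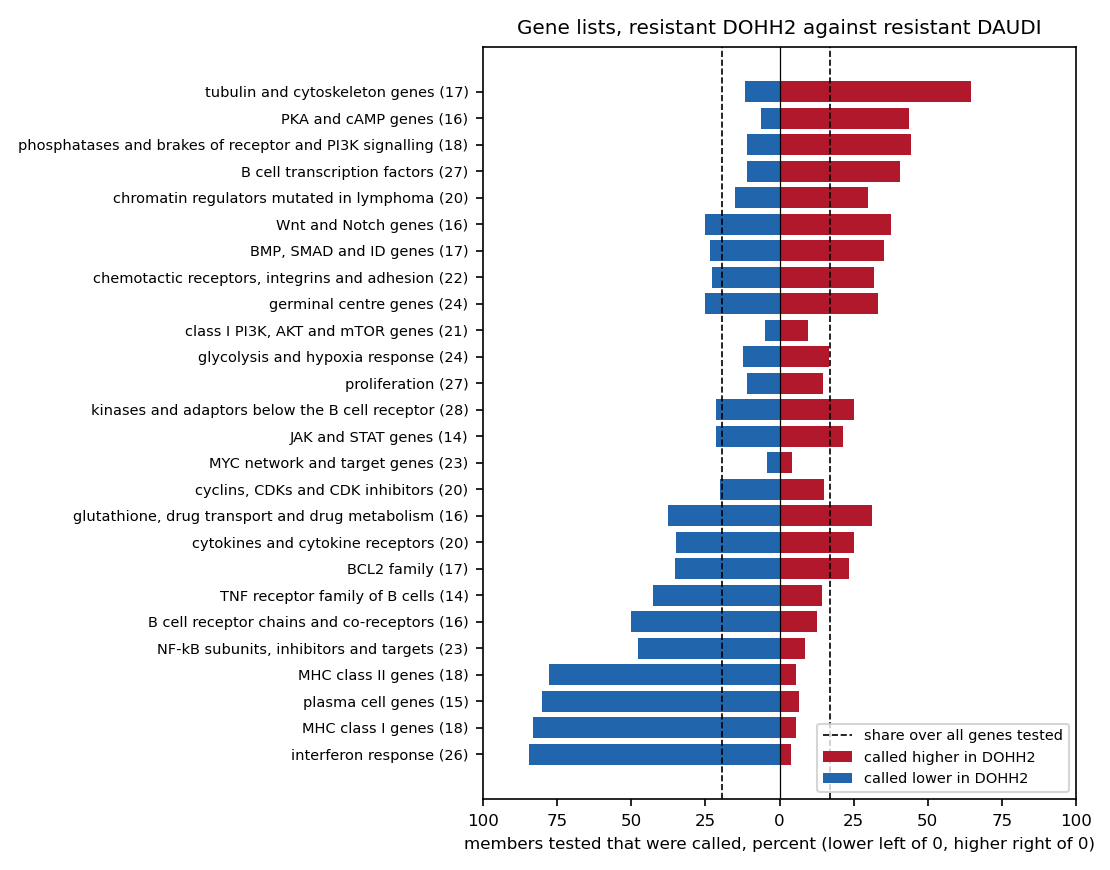
Members of each gene list called higher in DOHH2 (red, right of 0) and lower (blue, left of 0), as a percent of the members tested, whose number stands in brackets; lists described in the text with at least 10 members tested are shown, ordered by the excess of higher over lower, and dashed lines mark the 16.9% and 19.5% called among all genes. Interferon, MHC and plasma cell lists lie at the foot with mostly lower members, and the tubulin list at the top with mostly higher ones.

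Interferon response genes stood lower in DOHH2 than in DAUDI in both drug states. Of 26 members tested, 22 were called lower, 1 higher and 3 neither, with a median of -2.97, and the same 22 and 1 were at least 1 apart in both pairs. ISG15, IFI44L, IFI44 and IFITM1 differed most. IFI44L stood at 0.0349 and 0.0208 FPKM in DOHH2, against 28.3 and 50.5 FPKM in DAUDI (-5.24, SE 0.28, adjusted p = 0.000198), and its neighbour IFI44 at 0.0382 and 0.0985 FPKM in DOHH2, against 27.8 and 39.8 FPKM in DAUDI (-5.00, SE 0.20, adjusted p = 0.000101). Both genes lay under 0.1 FPKM in every DOHH2 library. IFITM1, which hinders virus entry, stood at 0.398 and 0.175 FPKM in DOHH2, against 18.0 and 78.3 FPKM in DAUDI (-4.92, SE 0.64, adjusted p = 0.00362). Its call was lost without the idelalisib-resistant or the ibrutinib-resistant DOHH2 library (adjusted p = 0.0666 and 0.0706). Among members that sense viral RNA, DDX58 differed by -2.03, and IFIH1 was listed at 0 in both DOHH2 libraries, against 13.4 and 23.5 FPKM in DAUDI. Members that bind viral RNA or help degrade it were lower too, with differences of -4.90 for OAS2, -2.89 for OAS1, -4.54 for IFIT3 and -2.38 for IFIT1. Of those that carry the interferon signal, IRF9 and IRF7 differed by -1.57 and -2.08. IFITM2 was the 1 member called higher, with 8.09 and 3.202 FPKM in DOHH2, against 0.452 and 0.278 FPKM in DAUDI, and its sequence is close to those of IFITM1 and IFITM3, so its reads may be shared with them. IFITM3, STAT2 and BST2 were not called, and BST2 stood at 128 and 129 FPKM in DOHH2, against 135 and 215 FPKM in DAUDI. The interferon receptor genes did not share this direction: IFNAR1, IFNGR1 and IFNGR2 were not called and IFNAR2 was called higher (1.08). The counts with 1 library left out were 1, 1, 0 and 0 higher and 11, 12, 23 and 20 lower.

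Promoter sequence was looked up for these genes, since interferon acts through a DNA element that a complex with STAT2 and IRF9 binds. The motif searched was GAAA, 2 bases of any kind and GAAA again, the core of that element, on both strands, in the 300 bases from 250 before to 50 after each RefSeq start (GRCh38.p14; the deposited tables use hg19). It occurred in 381 of the 9156 genes tested that have an entry (4.16%), and in 4.38% of all 27305 promoters of the table. Only 20 of the 26 interferon members had an entry (76.9%), under the 80% set for such a check, so no share is drawn for the list. The sequences of 5 members that were called lower and 2 that were not are shown, 5′ to 3′ on the strand of the gene, so that the element can be seen with its flanks; capitals mark the motif or its reverse complement. The first 5 are ISG15 (chr1:1013359-1013424, plus strand), IFI44 (chr1:78649746-78649788, plus), IFIT1 (chr10:89392482-89392554, plus), IFIT3 (chr10:89332410-89332512, plus) and IFITM1 (chr11:313975-314034, plus). The last 2 are IFITM3 (chr11:320861-320937, minus) and BST2 (chr19:17405720-17405785, minus).
ISG15: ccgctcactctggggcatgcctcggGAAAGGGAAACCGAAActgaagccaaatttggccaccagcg
IFI44: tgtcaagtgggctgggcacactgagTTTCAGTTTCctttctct
IFIT1: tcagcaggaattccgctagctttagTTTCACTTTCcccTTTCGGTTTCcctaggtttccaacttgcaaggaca
IFIT3: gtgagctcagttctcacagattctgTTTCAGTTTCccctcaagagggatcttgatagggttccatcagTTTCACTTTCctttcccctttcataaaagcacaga
IFITM1: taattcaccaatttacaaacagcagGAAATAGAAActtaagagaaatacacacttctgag
IFITM3: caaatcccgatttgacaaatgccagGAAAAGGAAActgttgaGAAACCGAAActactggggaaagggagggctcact
BST2: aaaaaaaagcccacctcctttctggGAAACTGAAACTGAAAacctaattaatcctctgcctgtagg
IFIT1, IFIT3 and IFITM3 hold the motif in 2 separate places in these windows, while in ISG15 and BST2 overlapping copies run together. All sequences shown were drawn from members that hold the motif before the start, so its presence in them follows from that choice. Among them are members that were called lower and members that were not. A match describes the letters and shows no binding.

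MHC class I genes, whose products display peptides on the cell surface, stood lower in DOHH2 than in DAUDI, apart from B2M. Of 18 tested, 15 were called lower, 1 higher and 2 (HLA-E and PDIA3) neither, with a median of -1.55. The heavy chain genes HLA-B and HLA-C differed by -1.03 and -2.48. PSMB9 (-5.52, above), HLA-F and TAP1 were among those that differed most. HLA-F stood at 0.797 and 1.12 FPKM in DOHH2, against 33.5 and 53.7 FPKM in DAUDI (-4.47, SE 0.25, adjusted p = 0.000231). TAP1, a subunit of the peptide transporter, stood at 6.09 and 9.07 FPKM in DOHH2, against 49.9 and 61.1 FPKM in DAUDI (-2.74, SE 0.22, adjusted p = 0.000708). B2M ran the other way, at 1196 and 1466 FPKM in DOHH2, against 349.7 and 458 FPKM in DAUDI (1.72, SE 0.19, adjusted p = 0.00199). Its call was lost without the ibrutinib-resistant DOHH2 library (adjusted p = 0.0574). Heavy chain genes are polymorphic and near-identical, so reads may be lost or shared in a line whose alleles differ from the reference. The counts with 1 library left out were 1, 0, 1 and 1 higher and 9, 9, 16 and 13 lower.

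MHC class II genes, which present peptides to helper T cells, also stood lower. Of 18 tested, 14 were called lower, 1 higher and 3 (HLA-DMB, RFX5 and RFXANK) neither, with a median of -1.25. HLA-DRA, which varies little between people, stood at 383 and 400.4 FPKM in DOHH2, against 1326 and 1423 FPKM in DAUDI, a difference of -1.81. CD74, the invariant chain, differed by -1.68, and CIITA, the master regulator of the class, by -0.73. HLA-DQA1 stood at 2.63 and 5.04 FPKM in DOHH2, against 153 and 143 FPKM in DAUDI (-4.99, SE 0.26, adjusted p = 0.000182) and HLA-DPA1 at 70.2 and 77.1 FPKM in DOHH2, against 424 and 508 FPKM in DAUDI (-2.64, SE 0.15, adjusted p = 0.000248). HLA-DRB5 was called higher (2.03), but it is a near copy of HLA-DRB1 that many haplotypes lack, so the split between them is uncertain. HLA-DQA1 varies between people and resembles HLA-DQA2, which was also called lower. Reads of both may be lost or shared in a line whose alleles differ from the reference. With 1 library left out the counts became 1, 1, 1 and 1 higher and 9, 9, 13 and 12 lower.

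**Figure D4:**
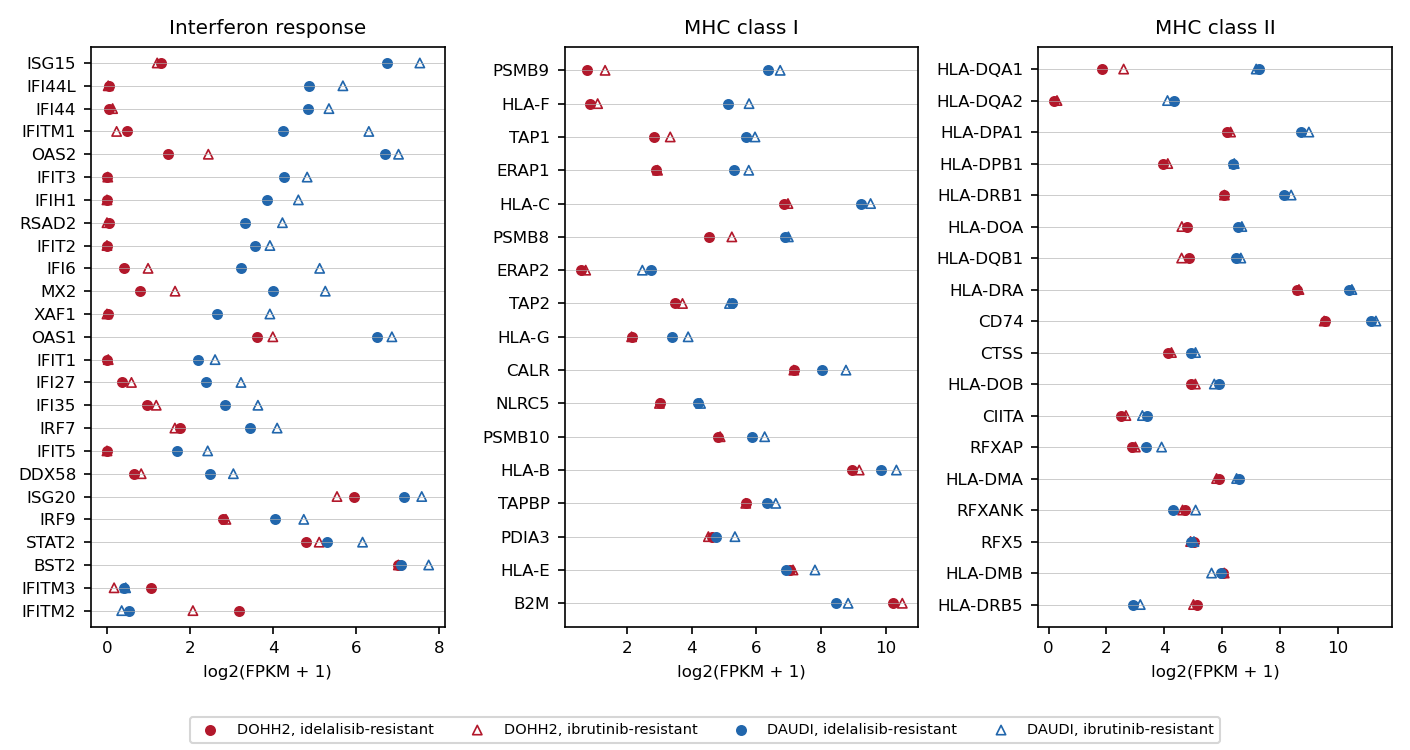
Levels of tested members of the interferon response, MHC class I and MHC class II lists, as log2(FPKM + 1) per library, ordered by the difference between the lines; circles are idelalisib-resistant and triangles ibrutinib-resistant libraries, red DOHH2 and blue DAUDI. Red symbols lie left of blue ones for most members, and IFITM2, B2M and HLA-DRB5 are the reverse at the foot of each panel.

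Plasma cell genes, switched on as B cells turn to antibody secretion, were mostly lower in DOHH2. Of 15 tested, 12 were called lower, 1 (IGJ) higher and 2 neither, with a median of -1.19. The transcription factor genes of this fate, IRF4, XBP1 and PRDM1, differed by -3.41, -2.33 and -0.96. IRF4 stood at 0.304 and 0.339 FPKM in DOHH2, against 7.06 and 23.5 FPKM in DAUDI. XBP1 stood at 68.3 and 74.5 FPKM in DOHH2, against 307 and 431 FPKM in DAUDI (-2.33, SE 0.20, adjusted p = 0.000847). CREB3L2, a factor of the secretory pathway, was listed at 0 in both DOHH2 libraries and stood at 10.02 and 19.0 FPKM in DAUDI, and FKBP11 of the endoplasmic reticulum had 26.2 and 26.7 FPKM in DOHH2, against 108 and 166 FPKM in DAUDI. The call of IRF4 was lost without the idelalisib-resistant or the ibrutinib-resistant DOHH2 library (adjusted p = 0.0896 and 0.086), and that of PRDM1 without the idelalisib-resistant or the ibrutinib-resistant DOHH2 library (adjusted p = 0.108 and 0.101). Beside them, the 6 plasma cell markers, all of them members of this list, summed to 256 and 269.9 FPKM in DOHH2 and to 620.5 and 956 FPKM in DAUDI. The counts across libraries left out were 1, 0, 0 and 0 higher and 4, 4, 12 and 11 lower.

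Germinal centre genes went both ways. Of 24 tested, 8 were called higher, 6 lower and 10 neither (median 0.42). BCL6, the repressor that maintains the germinal centre programme, stood at 121 and 110.1 FPKM in DOHH2, against 44.0 and 50.9 FPKM in DAUDI (1.27, SE 0.15, adjusted p = 0.0025). Its call was lost without the idelalisib-resistant DOHH2 library (adjusted p = 0.0603). RGS13, which dampens chemokine receptors, stood at 101 and 94.7 FPKM in DOHH2, against 1.75 and 3.66 FPKM in DAUDI (4.78, SE 0.27, adjusted p = 0.000223). A4GALT, which makes the CD77 glycolipid of Burkitt lymphoma, ran the other way: it was listed at 0 in both DOHH2 libraries and stood at 7.58 and 9.06 FPKM in DAUDI. MME (CD10), CD38 and SERPINA9 were not called. Left out in turn, the libraries gave 2, 4, 8 and 7 higher and 4, 4, 5 and 5 lower.

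B cell transcription factor genes gave more calls upward than downward. Of 27 tested, 11 were called higher, 3 lower and 13 neither, with a median of 0.45. LEF1, a Wnt effector of early B cells, stood at 20.2 and 16.4 FPKM in DOHH2, against 0.143 and 0.113 FPKM in DAUDI (4.09, SE 0.16, adjusted p = 0.0001). Most of the other higher members moved by about 1 or less, among them MEF2C (1.08), IKZF1 (0.62), IKZF3 (0.96), TCF4 (0.77) and BCL11A (0.76). ID3, an inhibitor of the E proteins TCF3 and TCF4, was lower at 11.98 and 11.8 FPKM in DOHH2, against 126 and 83.6 FPKM in DAUDI (-3.01, SE 0.22, adjusted p = 0.000532). PAX5, EBF1, TCF3 and SPI1 were not called. Leaving out libraries gave 1, 1, 8 and 6 higher and 1, 1, 2 and 3 lower.

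Among the chains and co-receptors of the B cell receptor, 2 of 16 were called higher, 8 lower and 6 neither (median -0.45). CR2, the complement receptor CD21, stood at 0 and 0.0234 FPKM in DOHH2, against 9.34 and 9.002 FPKM in DAUDI (-3.33, SE 0.14, adjusted p = 0.000112). CD79B, a signalling chain of the receptor, stood at 117 and 64.9 FPKM in DOHH2, against 490.4 and 514 FPKM in DAUDI (-2.51, SE 0.28, adjusted p = 0.00228), and the call was lost without the idelalisib-resistant or the ibrutinib-resistant DAUDI library (adjusted p = 0.0649 and 0.0712). The Toll-like co-receptor CD180 had 5.90 and 5.79 FPKM in DOHH2, against 26.1 and 24.8 FPKM in DAUDI. CD81 (1.11) and CD22 (0.67) were called higher, and MS4A1 (CD20) was not called. The call of CD22 was lost without the idelalisib-resistant or the ibrutinib-resistant DOHH2 library (adjusted p = 0.27 and 0.266). Counts with a library left out were 0, 0, 2 and 2 higher and 4, 3, 4 and 3 lower.

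The genes of the drug targets were not called. BTK stood at 101 and 109 FPKM in DOHH2, against 112 and 115 FPKM in DAUDI (-0.11, SE 0.13, adjusted p = 0.548), and PIK3CD at 13.6 and 12.2 FPKM in DOHH2, against 13.2 and 15.3 FPKM in DAUDI (-0.13, SE 0.15, adjusted p = 0.529). Of 28 kinases and adaptors below the receptor, 7 were called higher, 6 lower and 15 neither (46.4% called, median -0.10). BANK1, an adaptor, stood at 1.10 and 0.919 FPKM in DOHH2, against 57.9 and 65.0 FPKM in DAUDI (-4.96, SE 0.15, adjusted p = 6.23e-05), and PRKCB, the protein kinase C isoform downstream of BTK, at 0.0114 and 0.203 FPKM in DOHH2, against 23.3 and 39.8 FPKM in DAUDI (-4.83, SE 0.27, adjusted p = 0.000237). Among SRC family kinases FGR was lower, with 2.26 and 2.11 FPKM in DOHH2, against 37.1 and 25.9 FPKM in DAUDI (-3.33, SE 0.20, adjusted p = 0.000295), while LYN, BLK and FYN were not called. SYK (0.82) was called higher. With libraries left out these counts were 2, 2, 7 and 6 higher and 3, 3, 6 and 5 lower.

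Of 18 phosphatases and other brakes on receptor and PI3K signalling, 8 were called higher, 2 lower and 8 neither, with a median of 0.53. PTPN6 (SHP-1, 1.52), INPP5D (SHIP1, 0.97) and PTPRC (CD45, 0.53) were among the higher members. LAX1, an adaptor that restrains receptor signalling, was listed at 0 in both DOHH2 libraries and stood at 6.66 and 5.02 FPKM in DAUDI. UBASH3B stood at 8.39 and 8.32 FPKM in DOHH2, against 0.895 and 2.19 FPKM in DAUDI, and the call was lost without the idelalisib-resistant or the ibrutinib-resistant DOHH2 library (adjusted p = 0.0764 and 0.0743). PTPN6 stood at 8.58 and 8.51 FPKM in DOHH2, against 1.62 and 3.23 FPKM in DAUDI, a call lost without the idelalisib-resistant or the ibrutinib-resistant DOHH2 library (adjusted p = 0.108 and 0.105). Counts with libraries left out were 0, 1, 6 and 7 higher and 1, 1, 2 and 2 lower. Of 21 class I PI3K, AKT and mTOR genes, 2 were called higher, 1 lower and 18 neither, 14.3% called against 36.4% of all genes (median 0.024), with 0, 0, 1 and 1 higher and 0, 0, 3 and 1 lower when libraries were left out.

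The BCL2 family was split in both directions. Of 17 tested, 4 were called higher, 6 lower and 7 neither (median -0.27). BCL2 (5.44, above) and the pro-apoptotic genes BMF (2.08), BCL2L11, which encodes BIM (1.09), and BID (0.81) were higher. BCL2L1, which encodes the anti-apoptotic protein BCL-XL, was lower at 6.20 and 5.55 FPKM in DOHH2, against 29.8 and 39.7 FPKM in DAUDI (-2.37, SE 0.18, adjusted p = 0.000636). BIK, a pro-apoptotic gene, was listed at 0 in both DOHH2 libraries and stood at 13.2 and 10.2 FPKM in DAUDI. BMF stood at 37.4 and 31.7 FPKM in DOHH2, against 6.35 and 8.57 FPKM in DAUDI (2.08, SE 0.19, adjusted p = 0.00106). MCL1, BCL2A1 and BAX were not called. With libraries left out the counts ran 2, 2, 4 and 5 higher and 2, 2, 3 and 2 lower.

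MYC was not called, and few genes of its network were. It stood at 145 and 127 FPKM in DOHH2, against 192 and 117 FPKM in DAUDI, and the groups overlapped (-0.15, SE 0.25, adjusted p = 0.671). Of 23 network and target genes 1 was called higher (NCL, 0.72), 1 lower (TERT, -0.68) and 21 neither, 8.7% called against 36.4% of all genes (median -0.10). With libraries left out, 0, 0, 1 and 1 higher and 0, 0, 2 and 2 lower were called. The call of NCL was lost without the idelalisib-resistant or the ibrutinib-resistant DOHH2 library (adjusted p = 0.171 and 0.168), and that of TERT without the idelalisib-resistant or the ibrutinib-resistant DOHH2 library (adjusted p = 0.12 and 0.118). Proliferation genes gave 4 higher, 3 lower and 20 neither of 27 (25.9% called, median -0.028). Glycolysis and hypoxia genes gave 4 higher, 3 lower and 17 neither of 24 (29.2% called, median 0.057). Both shares lay under the 36.4% of all genes. Proliferation genes gave, as libraries were left out, 0, 0, 0 and 0 higher and 0, 0, 5 and 2 lower, and glycolysis and hypoxia genes 1, 1, 4 and 3 higher and 1, 2, 3 and 2 lower.

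Members of the NF-kB pathway that were called lay mostly lower in DOHH2. None of the subunit genes NFKB1, NFKB2, REL, RELA and RELB was called. Of 23 subunits, inhibitors and targets, 2 were called higher, 11 lower and 10 neither, with a median of -0.52. LTB (above), BIRC3, TNFAIP3 and TRAF1 differed most. BIRC3, an inhibitor of apoptosis, stood at 1.60 and 1.39 FPKM in DOHH2, against 28.5 and 24.2 FPKM in DAUDI (-3.45, SE 0.15, adjusted p = 0.000123), and TNFAIP3, the brake A20, at 0.370 and 0.771 FPKM in DOHH2, against 3.96 and 6.39 FPKM in DAUDI, a call lost without the idelalisib-resistant DOHH2 library (adjusted p = 0.0646). CD40 (-1.11) and TRAF1 (-1.55) were lower and ICAM1 (0.61) higher. Libraries left out gave 0, 0, 1 and 2 higher and 3, 5, 9 and 8 lower.

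Among cyclins, CDKs and their inhibitors 3 of 20 were called higher, 4 lower and 13 neither (median 0.22). The 35% called lay near the 36.4% of all genes. The list gave, as libraries were left out, 0, 0, 4 and 3 higher and 2, 2, 3 and 3 lower. CDKN1A, the cell cycle inhibitor p21, stood at 32.0 and 26.4 FPKM in DOHH2, against 55.1 and 128 FPKM in DAUDI, and its call was lost without the idelalisib-resistant or the ibrutinib-resistant DOHH2 library (adjusted p = 0.186 and 0.243) and without the ibrutinib-resistant DAUDI library (adjusted p = 0.0663). MTAP, the neighbour of CDKN2A, was listed at 0 in both DOHH2 libraries, as CDKN2A was, and stood at 6.36 and 6.19 FPKM in DAUDI. CDKN1B, the inhibitor p27, was higher at 21.1 and 20.3 FPKM in DOHH2, against 4.23 and 7.56 FPKM in DAUDI, a call lost without the idelalisib-resistant or the ibrutinib-resistant DOHH2 library (adjusted p = 0.0965 and 0.0898).

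Receptors and ligands showed large differences in single genes. Of 20 cytokines and receptors 5 were called higher, 7 lower and 8 neither (median 0.051). IL4R stood at 2.76 and 1.42 FPKM in DOHH2, against 96.8 and 106 FPKM in DAUDI (-5.09, SE 0.24, adjusted p = 0.000133), so that both chains of the lymphocyte IL-4 receptor, IL4R and IL2RG, were low in DOHH2. IL18 stood at 5.597 and 10.6 FPKM in DOHH2, against 0 and 0 FPKM in DAUDI, and its call was lost without the ibrutinib-resistant DAUDI library (adjusted p = 0.0516). IL2RA differed by -2.80. In the TNF receptor family (2 higher, 6 lower and 6 neither of 14, median -0.21), TNFRSF13C, the BAFF receptor, was higher at 64.6 and 72.2 FPKM in DOHH2, against 2.87 and 4.22 FPKM in DAUDI (3.95, SE 0.19, adjusted p = 0.000154), and TNFRSF14, the HVEM receptor often lost in lymphoma, was lower at 0.0968 and 0.300 FPKM in DOHH2, against 11.1 and 11.1 FPKM in DAUDI (-3.34, SE 0.16, adjusted p = 0.000135). Of 14 JAK and STAT genes 3 were called higher, 3 lower and 8 neither (42.9% called, median -0.21). STAT5A was higher at 11.7 and 13.5 FPKM in DOHH2, against 1.03 and 1.24 FPKM in DAUDI (2.67, SE 0.15, adjusted p = 0.000248), and SOCS1, an inhibitor that interferon induces, was lower at 0.293 and 0.240 FPKM in DOHH2, against 6.02 and 8.77 FPKM in DAUDI (-2.71, SE 0.20, adjusted p = 0.000559). Left out in turn, libraries gave 1, 1, 3 and 4 higher and 4, 4, 6 and 5 lower for cytokines, 1, 1, 1 and 3 higher and 3, 4, 6 and 4 lower for the TNF receptor family and 2, 2, 2 and 1 higher and 1, 1, 4 and 2 lower for JAK and STAT genes.

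Chemotactic receptors, integrins and adhesion genes gave 7 higher, 5 lower and 10 neither of 22 (median 0.35). ICAM3 was higher at 42.0 and 29.4 FPKM in DOHH2, against 0.0858 and 0.126 FPKM in DAUDI (5.03, SE 0.20, adjusted p = 0.000101), while ICAM2 was lower at 13.8 and 11.4 FPKM in DOHH2, against 51.8 and 63.1 FPKM in DAUDI (-2.11, SE 0.17, adjusted p = 0.00078). ITGB7, an integrin chain that guides cells to the gut, stood at 1.71 and 1.83 FPKM in DOHH2, against 29.6 and 38.1 FPKM in DAUDI (-3.64, SE 0.17, adjusted p = 0.000135). ITGAL, the alpha chain of LFA-1, stood at 97.9 and 87.7 FPKM in DOHH2, against 15.8 and 28.5 FPKM in DAUDI, a call lost without the idelalisib-resistant or the ibrutinib-resistant DOHH2 library (adjusted p = 0.0793 and 0.0672). CXCR5, the receptor that guides B cells into follicles, differed by 0.56 and CXCR4 by -1.58. The counts with libraries left out were 2, 2, 4 and 7 higher and 4, 5, 6 and 5 lower.

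Tubulin and cytoskeleton genes were mostly higher in DOHH2. Of 17 tested, 11 were called higher, 2 lower and 4 neither, with a median of 0.63. TUBB3, the tubulin of neurons, stood at 329 and 269 FPKM in DOHH2, against 18.5 and 16.1 FPKM in DAUDI (4.03, SE 0.16, adjusted p = 0.000101), and TUBB2A, TUBB2B and TUBB differed by 1.74, 1.57 and 0.90. The coding sequences of tubulin genes are alike, so reads can be shared among them. MYO1E, a class I myosin, ran the other way at 0.0289 and 0.744 FPKM in DOHH2, against 19.9 and 18.1 FPKM in DAUDI (-3.90, SE 0.27, adjusted p = 0.000435). The counts as libraries were left out came to 4, 5, 5 and 6 higher and 1, 1, 2 and 2 lower. PKA and cAMP genes gave 7 higher, 1 lower and 8 neither of 16 (median 0.31). PDE4A, which breaks down cAMP, stood at 6.74 and 7.41 FPKM in DOHH2, against 1.19 and 1.24 FPKM in DAUDI (1.87, SE 0.14, adjusted p = 0.000603), and PRKAR2B, a regulatory subunit of PKA, at 234 and 209 FPKM in DOHH2, against 65.0 and 71.3 FPKM in DAUDI (1.68, SE 0.14, adjusted p = 0.000805). Here libraries left out gave 2, 2, 7 and 7 higher and 0, 0, 1 and 1 lower.

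Developmental signalling genes were mixed. Of 16 Wnt and Notch genes 6 were called higher, 4 lower and 6 neither (median 0.078). The Wnt co-receptors LRP6 and LRP5 were higher, LRP6 at 4.73 and 3.74 FPKM in DOHH2, against 0 and 0 FPKM in DAUDI and LRP5 by 2.02, and TCF7L2 differed by 2.12. NOTCH2 (-1.60) and NOTCH1 (-0.80) were lower. Of 17 BMP, SMAD and ID genes 6 were called higher, 4 lower and 7 neither (median 0.31). The receptor gene BMPR1A was lower at 0 and 0 FPKM in DOHH2, against 3.59 and 4.99 FPKM in DAUDI, and ACVR1 was higher at 3.205 and 2.34 FPKM in DOHH2, against 0 and 0.00736 FPKM in DAUDI (1.90, SE 0.18, adjusted p = 0.00122). Among 20 chromatin regulators mutated in lymphoma 6 were called higher, 3 lower and 11 neither (45% called, median 0.18). TET1 and TET2, which oxidise methylcytosine, differed by 1.55 and 1.54, EZH2 by 0.97 and DNMT3B by -1.33. The call of DNMT3B was lost without the ibrutinib-resistant DOHH2 library (adjusted p = 0.0631). KMT2D, CREBBP and EP300 were not called. With libraries left out, these lists gave 5, 4, 6 and 5 higher and 2, 2, 5 and 2 lower for Wnt and Notch, 3, 3, 3 and 5 higher and 3, 2, 4 and 3 lower for BMP and 2, 2, 7 and 5 higher and 1, 0, 3 and 2 lower for chromatin.

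Glutathione, drug transport and drug metabolism genes gave 5 higher, 6 lower and 5 neither of 16 (median -0.091). GSTP1 (5.05, above) was higher, while GSTM4, a glutathione transferase of another class, was lower at 0 and 0 FPKM in DOHH2, against 4.56 and 6.96 FPKM in DAUDI. The lipid transporter genes ABCB4 and ABCG1 were lower, ABCB4 at 0.121 and 0.102 FPKM in DOHH2, against 33.4 and 45.0 FPKM in DAUDI (-5.16, SE 0.18, adjusted p = 9.14e-05) and ABCG1 at 0.0294 and 0.0102 FPKM in DOHH2, against 10.1 and 18.0 FPKM in DAUDI (-3.83, SE 0.27, adjusted p = 0.000486). ALDH2 was higher at 6.53 and 13.1 FPKM in DOHH2, against 0.232 and 0.300 FPKM in DAUDI, a call lost without the idelalisib-resistant or the ibrutinib-resistant DAUDI library (adjusted p = 0.0578 and 0.0597). ABCB1 and ABCG2, the best known exporters of drugs, stood below 1 FPKM in all 4 libraries and were not tested. The list gave 3, 3, 4 and 5 higher and 3, 3, 6 and 5 lower with libraries left out. Of 25 germline and placental genes in the table only 4 reached 1 FPKM in any library and were tested, of which 1 was called higher, 2 lower and 1 neither (median -1.86), and with 1 library left out 0, 0, 1 and 1 higher and 2, 2, 2 and 3 lower. Besides TEX19, PRAME was lower at 0.582 and 0.155 FPKM in DOHH2, against 10.7 and 9.23 FPKM in DAUDI (-3.02, SE 0.20, adjusted p = 0.000403) and NLRP4 higher at 109 and 103 FPKM in DOHH2, against 15.2 and 28.8 FPKM in DAUDI, a call lost without the idelalisib-resistant or the ibrutinib-resistant DOHH2 library (adjusted p = 0.072 and 0.0657).

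A few genes differed between the lines in which isoform held their FPKM. Among 2068 genes with 2 or more isoforms and 10 FPKM or more in all 4 libraries, 13 (0.629%) had an isoform whose share differed by at least 50 percentage points in both drug states, a description with no test. In LCK, a SRC family kinase best known from T cells, the isoform NM_005356 held 69.3% and 75.1% of the FPKM in DOHH2, against 2.87e-05% and 3.43e-05% in DAUDI, where NM_001042771 held all of it. The level of LCK over both isoforms was 18.6 and 32.0 FPKM in DOHH2, against 22.0 and 17.1 FPKM in DAUDI (0.32, SE 0.28, adjusted p = 0.416). The lines thus differed in the listed isoform and overlapped in level. How FPKM is split between the isoforms of a gene is an estimate, which was not checked against reads. Taken from the isoform with the highest mean alone, the difference of LCK would be -1.39 (adjusted p = 0.00753). In PNOC, the nociceptin precursor, NM_006228 held 91.0% and 87.1% in DOHH2, against 0.627% and 1.14% in DAUDI. NELL2 NM_001145109 held 99.9985% and 99.9989% in DOHH2, against 14.0% and 14.9% in DAUDI. VGLL4 NM_001128219 held 74.8% and 72.3% in DOHH2, against 13.7% and 8.63% in DAUDI. HLA-DRB1 changed its isoform whole, with a share difference of 99.9995 points, but its isoforms in the reference stand for alleles. The sixth was LOC100294145. At a minimum of 5 FPKM 21 genes met the rule, at 20 FPKM 4, and without the idelalisib-resistant DOHH2, ibrutinib-resistant DOHH2, idelalisib-resistant DAUDI or ibrutinib-resistant DAUDI library 23, 19, 24 and 17 did.

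The gene next to a called gene was called in the same direction somewhat more often than genes at large. The next tested gene along the chromosome was called in the same direction for 24.6% of the genes called higher (16.9% of all genes) and for 27.6% of those called lower (19.5%). The longest run held 11 neighbours called lower, at chr6:32520490-32827628 (hg19), from HLA-DRB6 over HLA-DQA1, TAP2, PSMB8 and TAP1 to PSMB9. Within it the calls of HLA-DOB and TAPSAR1 were lost without either DOHH2 library and that of PSMB8 without either DAUDI library, so the run was broken in each of these settings. The next 2 runs held 8 genes called higher each and both lay on chromosome 15. At chr15:43477466-43882451 (hg19) these included CCNDBP1, LCMT2, ADAL, ZSCAN29, TUBGCP4, MAP1A and PPIP5K1. At chr15:44064798-44829121 (hg19) they were ELL3, SERF2, HYPK, MFAP1, WDR76, CASC4, CTDSPL2 and EIF3J-AS1. Except for MAP1A, HYPK and ELL3, these calls were lost when a DOHH2 library was left out, with adjusted p up to 0.282. SERF2, HYPK and EIF3J-AS1 overlap or lie against neighbours, so their reads may be shared. In the run on chr6, TAPSAR1 overlaps PSMB8 and TAP1. Several HLA genes of that run are polymorphic or near copies of one another, so reads there may be lost or shared.

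Chromosomes 7, 15 and 2 had the largest shares of genes called higher in DOHH2, a choice made after seeing the values. Of 575 genes tested on chromosome 7, 182 were called higher (31.7%) and 77 lower (13.4%), with a median difference of 0.27 (0.26 in the idelalisib-resistant and 0.27 in the ibrutinib-resistant pair). Every 20 Mb stretch of chromosome 7 had a median above 0, between 0.11 and 0.38. Chromosome 15 had 108 of 377 genes higher (28.6%) and a median of 0.09. There the stretches differed: from 20 to 40 Mb 26 of 47 genes were higher and 3 lower (median 0.61), from 40 to 60 Mb 62 of 128 were higher and 14 lower (0.55), and from 60 to 80 Mb 9 of 120 were higher and 30 lower (-0.17). Chromosome 2 had 180 of 734 genes higher (24.5%). The excess lay towards its end, where 15 of 22 genes beyond 240 Mb were higher and 0 lower, with a median of 0.82. In the idelalisib-resistant pair this median was 0.91 and in the ibrutinib-resistant pair 0.71. Chromosome 20 had the smallest share of genes called higher, 27 of 299 (9.03%). Its 64 genes called lower (21.4%) lay near the 19.5% of all genes.

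**Figure D5:**
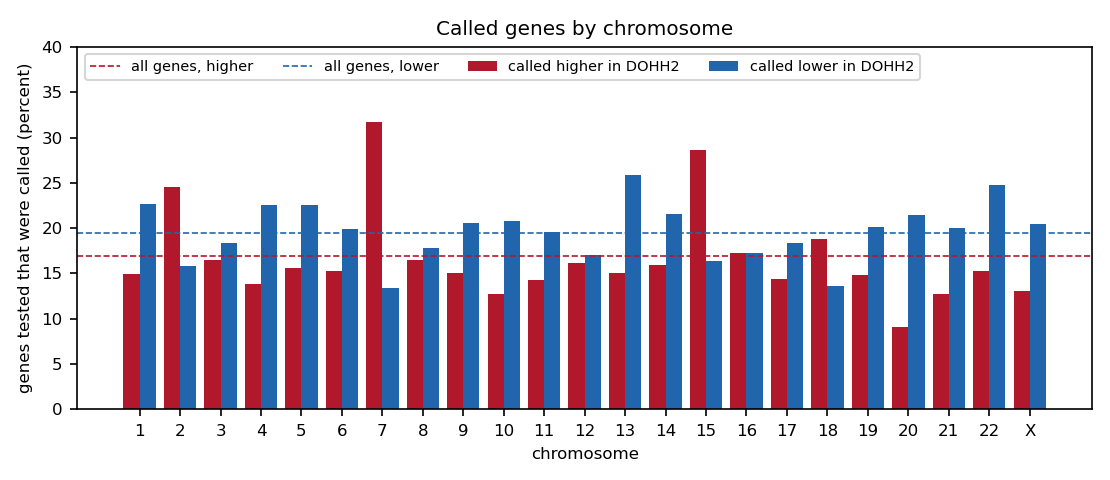
Percent of the tested genes of each chromosome called higher in DOHH2 (red) and lower (blue), for chromosomes with at least 100 genes tested; dashed lines mark 16.9% higher and 19.5% lower over all genes. The red bar stands furthest above its line on chromosomes 7 and 15 and furthest below it on chromosome 20.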

How the data were processed

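PolyA RNA was sequenced with a directional kit, per the labels' protocols. The submitters' processing notes name bcl2fastq, cutadapt, TopHat2, Cufflinks and the build hg19. The sources used here do not give their versions. For 43490 isoforms per library the authors deposited FPKM, which they scaled to transcript length and mapped fragments. Per the file headers they also hold a coverage signal and the isoform length in nucleotides (nt).

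FPKM were summed per gene (23836 genes). Left out were 528 isoforms without a gene name, 8 genes with a failed estimate, genes without an isoform of 300 nt and genes under 1 FPKM in all 4 libraries, which left 11399. limma 3.58.1 (R 4.3.3) was run on log2(FPKM + 1) with line as factor and an intensity trend, two-sided (2 residual and 3.48 prior degrees of freedom, median SE 0.17). The code was also run on data simulated with independent spread per library. Such data cannot show whether differently selected cultures serve as replicates. Relative depth came from coverage per FPKM. Where both libraries of a line are listed at 0, no ratio is given, since a 0 has no known bound.

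The members compared and the gene lists were chosen with earlier results of these data known. Named were the 15 highest and 15 lowest genes, ranked by the smaller of their differences in the drug states (5 FPKM or more in 1 library, without small RNAs, antigen receptor segments and unnamed loci), 4 members per list with the largest difference, BTK, PIK3CD, BCL2, MYC, BCL6 and B2M, 6 genes for isoform shares and the genes of the 3 longest runs of neighbours. Some genes and lists are not reported here. Other names were picked with values in view, as the text says. Alternatives changed the pseudocount, filter, scaling, isoform, trend, drug block and libraries. Promoter sequences are from RefSeq (GRCh38.p14).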

Additional observations from a re-analysis of the deposited data

Results flagged for a closer look

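BLOC1S5-TXNDC5, a read-through gene on chromosome 6 that overlaps TXNDC5, was the 1 gene of 11399 at least 1 apart in opposite directions in the drug states. It stood at 0.000718 and 3.36 FPKM in the idelalisib-resistant and ibrutinib-resistant DOHH2 libraries, against 1.42 and 0.000420 FPKM in the DAUDI libraries. DOHH2 minus DAUDI was -1.27 in the idelalisib-resistant pair and 2.12 in the ibrutinib-resistant pair. With 1 library per line and drug this difference between the pairs was not tested.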

How the results depend on the processing

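Called genes numbered 3780 to 4704 over the settings that kept all 4 libraries (pseudocount 0.1 or 5, no filter, rescaling by the median of ratios or the upper quartile, highest isoform only, drug state as a block, no trend or robust fit), against 4144 reported, except for 2981 with a filter of 5 FPKM, where 1142 of the 4144 were not tested. With 1 library left out, 1244 to 3521 were called, 596 to 1458 higher and 638 to 2170 lower. Genes 1 apart in both states numbered 2238 to 2642 (977 to 1103 higher, 1135 to 1665 lower) with 1 library left out, where only 1 pair remains, and 727 (337 higher, 390 lower) with a pseudocount of 5. Genes on in 1 line only numbered 141 with off drawn at 0.5 FPKM, 200 with on drawn at 5 FPKM, and 102 to 120 with 1 library left out, against 93. Isoform differences numbered 21 at a minimum of 5 FPKM, 4 at 20 FPKM and 17 to 24 with 1 library left out, against 13; leave-outs for these last counts were added after seeing the data.

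From the highest isoform only, 15 of the 4144 called genes had a difference of the other sign. With drug state as a replicate block 4256 genes were called, 3844 of them among the 4144. The block rests on the drug named in the labels. Across genes, the idelalisib minus ibrutinib differences of DOHH2 had an r of -0.0046 with those of DAUDI. With 1 library per line and drug, a drug effect shared by the lines was not tested. Directions turned for 3 of the 177 named genes, none of them called: with 1 library left out, MYC (-0.15) ran between -0.50 and 0.20, NELL2 (0.21) between -0.029 and 0.44, and LCK (0.32) between -0.056 and 0.69, and LCK gave -1.39 from the highest isoform only. Of the named genes' calls, 49 and 50 were lost without the idelalisib-resistant and the ibrutinib-resistant DOHH2 library, and 17 and 19 without those of DAUDI. With 1 library left out, the lone library of a line is assumed to vary like the pair of the other line. Each line is 2 libraries, and line cannot be told apart from anything else in which these cultures differ.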
